A study of Mus musculus with 12 samples.

Results

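The medial and caudal ganglionic eminences (MGE and CGE) of the embryonic mouse forebrain were compared through their H3K4me3 peaks, measured by CUT&Tag in dissected tissue. Of the 12 libraries of the series, 7 belonged to the comparison, 3 from the MGE and 4 from the CGE, each region with 2 biological replicates. Every one of 21938 protein-coding genes annotated on the chromosomes was ranked, whatever its values. For each gene the bases under a peak within 5 kb of any of its annotated transcription start sites were counted in each list (its covered bases) and turned into a percentile among all genes of that list. The MGE percentile minus the CGE percentile, in points, was the value compared, because the CGE peaks were wider. The embryos were wild-type C57BL/6J animals of both sexes at E12.5 per the study's methods, without treatment, and tissue of several embryos was pooled for each region. The lateral eminence (LGE, 2 libraries) and the somatosensory cortex (CTX, 3 libraries) of the same kind of embryo are used below to place the MGE and CGE values. One peak list was deposited for each region, called after its replicates had been merged, so no value has a replicate error and no difference could be tested. In dissected tissue, fewer cells carrying a mark and a weaker mark in each cell cannot be told apart.

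The ganglionic eminences are transient swellings of the ventral forebrain in which GABAergic neurons are born. The MGE gives rise to the cortical interneurons that later express parvalbumin or somatostatin. The CGE supplies those that express VIP, reelin or other markers of later-born classes. Sonic hedgehog signalling and the homeodomain factor Nkx2-1, with its target Lhx6, specify MGE fate, and the nuclear receptors Nr2f1 and Nr2f2, with Prox1 and Sp8, are used to recognise the CGE. H3K4me3 is a histone mark that sits around the start sites of active genes and over CpG islands, and it can spread far into the body of genes that control cell identity.

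The promoters of 5 genes show where the lists parted at base level. Uncx, Fezf2 and Cck were chosen from the CGE end of the ranking, Gpr50 from the MGE end, and Nkx2-1 as the gene that defines the MGE. Each line gives the 250 bases before the RefSeq start on build GRCm38.p6, with the bases under a CGE peak (Uncx, Fezf2, Cck) or an MGE peak (Gpr50, Nkx2-1) in capitals.
Uncx, chr5:139543648-139543897, plus strand: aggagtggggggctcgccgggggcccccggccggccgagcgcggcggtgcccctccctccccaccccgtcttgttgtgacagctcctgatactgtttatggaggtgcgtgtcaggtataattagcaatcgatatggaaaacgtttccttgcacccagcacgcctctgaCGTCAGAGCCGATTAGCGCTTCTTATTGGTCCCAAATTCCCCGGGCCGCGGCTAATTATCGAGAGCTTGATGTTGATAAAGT
Fezf2, chr14:12345866-12346115, minus strand: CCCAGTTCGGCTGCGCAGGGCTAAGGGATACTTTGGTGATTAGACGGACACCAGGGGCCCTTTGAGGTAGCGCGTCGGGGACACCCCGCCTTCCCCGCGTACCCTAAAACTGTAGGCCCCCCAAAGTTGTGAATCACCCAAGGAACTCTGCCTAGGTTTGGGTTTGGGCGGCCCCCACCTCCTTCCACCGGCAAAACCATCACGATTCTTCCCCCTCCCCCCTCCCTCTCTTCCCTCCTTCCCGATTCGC
Cck, chr9:121495695-121495944, minus strand: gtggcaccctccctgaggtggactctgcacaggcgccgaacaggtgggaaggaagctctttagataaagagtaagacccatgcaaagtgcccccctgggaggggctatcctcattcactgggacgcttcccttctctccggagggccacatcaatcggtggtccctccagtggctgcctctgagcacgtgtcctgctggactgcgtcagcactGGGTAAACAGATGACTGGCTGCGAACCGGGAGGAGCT
Gpr50, chrX:71663417-71663666, plus strand: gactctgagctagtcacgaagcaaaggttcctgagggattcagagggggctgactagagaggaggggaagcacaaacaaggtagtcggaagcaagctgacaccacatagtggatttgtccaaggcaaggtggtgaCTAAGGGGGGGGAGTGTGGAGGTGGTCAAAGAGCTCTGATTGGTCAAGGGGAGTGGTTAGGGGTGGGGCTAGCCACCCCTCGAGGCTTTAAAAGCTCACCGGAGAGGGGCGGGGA
Nkx2-1, chr12:56536909-56537158, minus strand: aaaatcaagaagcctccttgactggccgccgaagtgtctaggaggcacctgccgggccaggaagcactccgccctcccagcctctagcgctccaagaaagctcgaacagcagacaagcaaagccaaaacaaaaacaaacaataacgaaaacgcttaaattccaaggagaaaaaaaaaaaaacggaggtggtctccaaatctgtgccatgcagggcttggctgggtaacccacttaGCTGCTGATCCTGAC

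In the 250 bases of Uncx the CGE peak covered 82 bases and the other lists none. The RefSeq start of Uncx lies downstream of the 5′ end in the annotation used for ranking, so the same peak starts within the gene by the latter. All 250 bases of the Fezf2 window lay under a CGE peak, and under an LGE and a CTX peak too, again with none in the MGE. For Cck the CGE covered 37 of the bases and the LGE all 250. The order was the other way round at Gpr50, where the MGE peak reached 115 bases upstream and no other list did. At Nkx2-1 the MGE peak covered the last 15 bases before the start, and the other lists none. The dinucleotide CG occurred 20 times in the Uncx window, 14 times in that of Fezf2, 9 times in those of Cck and Nkx2-1 and 5 times in that of Gpr50. Among all 32851 RefSeq promoter windows of this length, 17.9% held at least 20, 29.4% at least 14, 40.3% at least 9 and 55.6% at least 5, and the median was 6.

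The lists of both eminences marked nearly the same genes. At least 1 covered base was found at 14254 genes in the MGE list and at 14178 in the CGE list. Both lists marked 13789 genes and neither marked 7295, which left 465 genes with covered bases in the MGE alone and 389 in the CGE alone. A gene with no covered base shares its rank with all others like it and stands at percentile 17.5 in the MGE and 17.7 in the CGE, so such genes differ by -0.17 points. The percentiles of both lists followed each other over the 21938 genes, with a Pearson r of 0.931, given as a description since genes are not replicates. The difference had an SD of 10.5 points, and 62.2% of genes lay within 5 points of 0. It ran from 71.3 points at Aida and Brox on the MGE side to -80.6 points at Uncx on the CGE side.

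A gene was placed at one end of the ranking when its percentiles differed by at least 20 points. By this rule 400 genes stood at the MGE end, 1.82% of all genes, and 961 at the CGE end, 4.38%. These 2 shares are the background for the counts of gene lists below. They include the 7295 genes unmarked in both lists, which can stand at neither end. Among the 14887 genes marked in any of the 4 lists the shares were 2.69% at the MGE end and 6.46% at the CGE end. A gene within 20 points of the top of one list cannot stand at the end of the other. Gene lists that rank high in the CGE therefore had little room to reach the MGE end. Tspo and Cntrl at 20.004 points were the last genes inside the MGE end and Cds2 at 19.99 points the first outside it. On the other side Oaz1 at -20.004 and Fam171b at -20.009 were the last inside and Krt222 at -19.99 the first outside. In absolute bases the lists were unequal before any ranking. The MGE list had 25339 peaks with a median width of 563 bp and the CGE list 17752 with a median of 1240 bp, which together covered 17.1 and 23.5 Mb. Of the genes, 13641 had more covered bases in the CGE list and 998 in the MGE list. In the genes marked in both, the median ratio of CGE to MGE bases was 1.40.

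**Figure D1:**
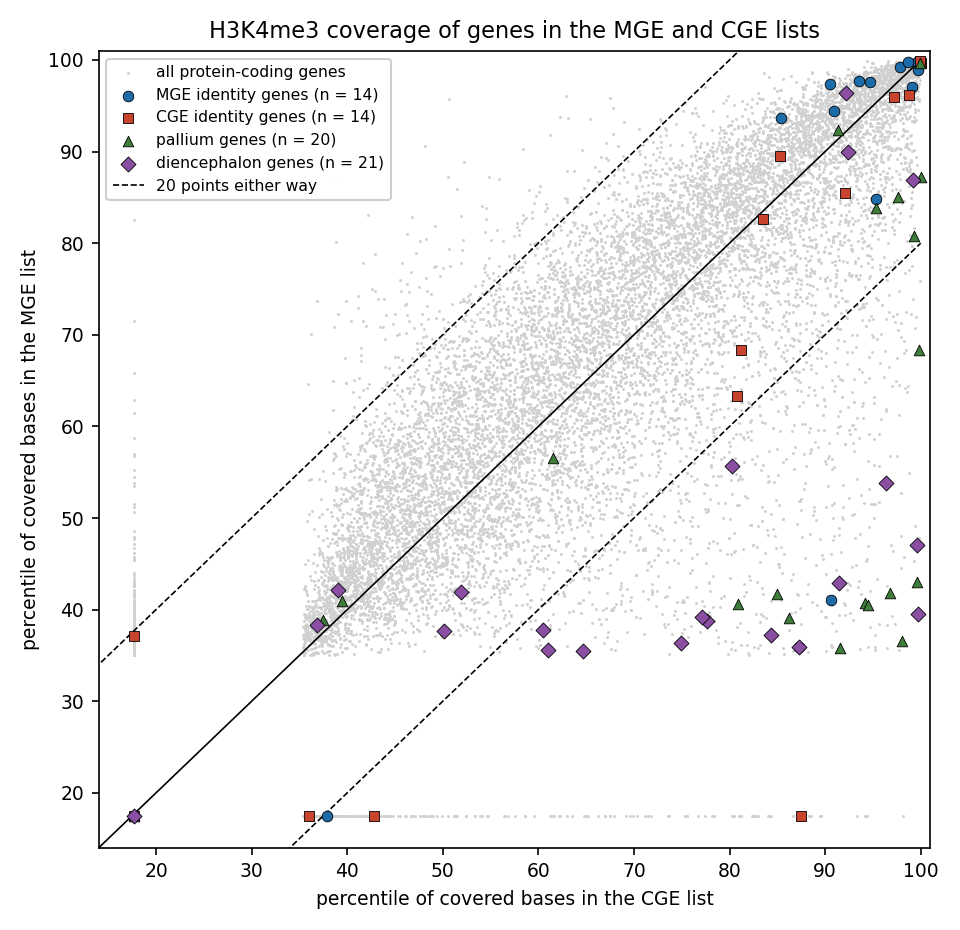
Each grey point is 1 of 21938 protein-coding genes, with its percentile of covered bases in the CGE list on the x axis and in the MGE list on the y axis. Coloured symbols are genes of 4 lists, the solid line marks equal percentiles and the dashed lines 20 points either way; genes without a covered base form the lines at percentiles 17.5 and 17.7. Most identity genes of either eminence lie near the solid line at the upper right, while 10 of 20 pallium genes and 13 of 21 diencephalon genes lie below the lower dashed line.

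Most transcription factors that define either eminence were covered widely in both lists, while several genes of mature interneurons were unmarked in one of them or in both. Of 14 genes tied to MGE identity, 13 had covered bases in the MGE and 14 in the CGE. Their median percentile was 97.2 in the MGE and 94.1 in the CGE, and the median of their differences was 0.60 points, against -0.17 for all genes. None stood at the MGE end and 3 (21.4%) stood at the CGE end, against 4.38% of all genes. Most of the 14 had no room to reach the MGE end, being within 20 points of the top in the CGE. Of 14 genes tied to CGE identity, 10 were marked in the MGE and 12 in the CGE, 9 of them in both, with median percentiles of 75.5 and 84.4 and a median difference of -1.96 points. Again none stood at the MGE end, and 2 (14.3%) stood at the CGE end. The 5 markers used to check the MGE label (Nkx2-1, Lhx6, Lhx8, Sox6 and Nkx6-2) differed by -0.75 to 8.25 points. The 5 used for the CGE (Nr2f2, Nr2f1, Prox1, Sp8 and Htr3a) differed by -6.64 to 19.5 points. By covered bases, these markers therefore did not part the lists by the 20-point rule. All but Htr3a had no room to reach the end of their own eminence, being within 20 points of the top in the other list. The MGE markers did part both eminences from the cortex, with a median percentile of 39.9 in the CTX list. Ranked instead by the highest −log10 q of a peak in the window, the MGE markers differed by -0.88 to 18.4 points. The CGE markers then differed by -28.8 to 18.1 points. Nkx2-1 stood at 18.4 and Lhx6 at 16.1, and Nr2f1 alone passed the rule, at -28.8. By the highest fold the ranges were -4.02 to 7.88 and -5.02 to 18.2 points.

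Nkx2-1 had 3262 covered bases in the MGE, 3804 in the CGE, 2934 in the LGE and none in the CTX. The percentiles were 99.2 in the MGE and 97.8 in the CGE, a difference of 1.42 points. The CGE bases formed a single peak at chr12:56533024-56536827, from 81 to 3884 bases into the gene, whereas the MGE bases came in 3 pieces. Of these, one at chr12:56535206-56536923 spanned the start site and one of 121 bp lay upstream of it. Lhx6, which acts downstream of Nkx2-1 in migrating MGE interneurons, had 3057 covered bases in the MGE, 5920 in the CGE, 3711 in the LGE and 451 in the CTX. Its percentile was 98.9 in the MGE and 99.7 in the CGE. A CGE peak of 5069 bp ran over its start at chr2:36100719-36105787, where the MGE list held 3 peaks of 310 to 1301 bp.

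The other MGE factors ranked much the same in both lists. Lhx8, needed for cholinergic neurons of the ventral forebrain, stood at 94.4 in the MGE and 90.9 in the CGE. Its percentile was 58.3 in the LGE, and the CTX list had no base there. Nkx6-2, expressed at the boundary of the MGE, stood at 93.6 and 85.4, a difference of 8.25 points. Etv1 and Maf were 6.89 and 2.84 points higher in the MGE. Satb1, Sox6 and Lmo3 differed by 1.06, 0.15 and -2.15 points. Shh, the ligand itself, was lower in the MGE by rank, with 1496 against 3078 covered bases and a difference of -10.5 points.

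The 3 MGE identity genes at the CGE end were Gbx2, Gbx1 and Sst. Gbx2 encodes a homeodomain factor that is also used in the thalamus. It had 145 covered bases in the MGE, 2203 in the CGE, 260 in the LGE and 1162 in the CTX, a difference of -51.3 points. Its related gene Gbx1 had 457 and 2463 bases in the MGE and CGE, -49.6 points. Sst, which encodes somatostatin, had no peak in the MGE, LGE or CTX list and a single one of 638 bp in the CGE at chr16:23890305-23890942, a difference of -20.4 points that just passed the rule.

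The CGE factors were covered widely in both lists. Nr2f2 had 3700 covered bases in the MGE, 12460 in the CGE, 5401 in the LGE and 2208 in the CTX. This was the widest difference in bases among the identity genes, yet the percentiles were 99.6 and 99.99, since few genes have more in either list. The CGE bases included a peak of 6944 bp at chr7:70354910-70361853, over which the MGE list had 4 peaks of 156 to 1117 bp. Nr2f1 had 4263 and 8125 bases in the MGE and CGE, with percentiles of 99.8 and 99.9. Its peaks in the MGE were 5 in number and 591 to 1213 bp wide, and the same stretch in the CGE held a peak of 4008 bp upstream of the start and one of 2509 bp within the gene. Prox1, which sets the fate of CGE interneurons, stood at 85.5 and 92.1, and Sp8 at 96.0 and 97.3. Adarb2 and Cxcl14 differed by -17.5 and -12.8 points, short of the rule.

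Cck and Npas1 were the CGE genes that stood at the CGE end. Cck encodes a neuropeptide of CGE-derived basket cells. Its CGE peak of 2217 bp at chr9:121493515-121495731 had no MGE counterpart, while the LGE had 1819 covered bases and the CTX none, and the difference was -70.0 points. Npas1 had 940 covered bases in the CGE, 494 in the LGE and none in the MGE, -25.2 points. Htr3a, the serotonin receptor subunit by which CGE interneurons are recognised, went the other way. It had 213 covered bases in the MGE and 396 in the CTX but none in the CGE or LGE, a difference of 19.5 points that rested on an MGE peak with a −log10 q of 1.07. Vip was unmarked in all 4 lists.

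**Figure D2:**
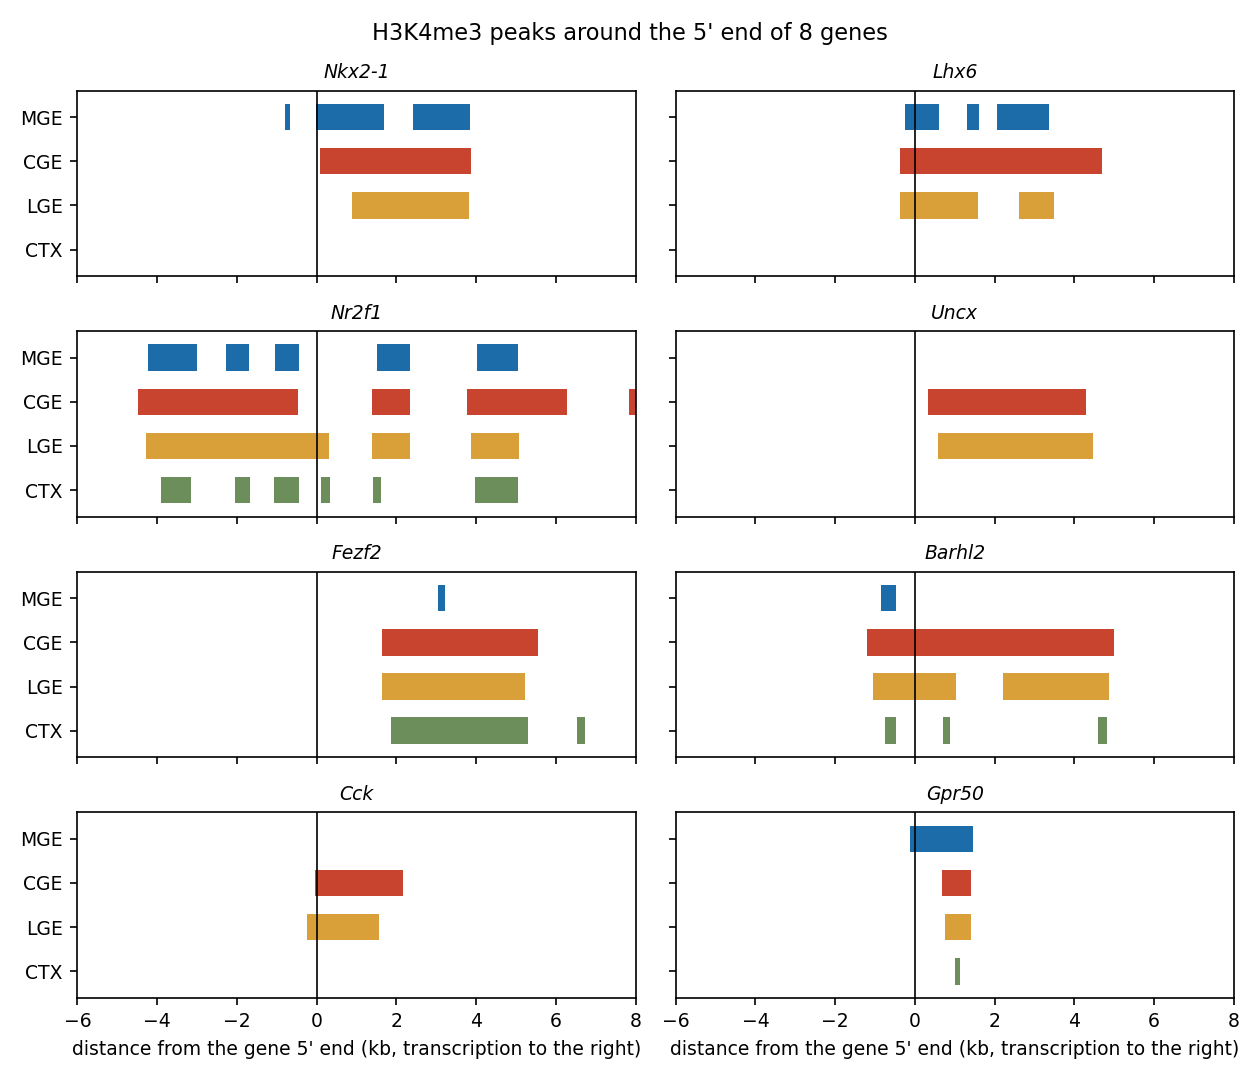
Peaks of the 4 lists around the 5′ end of 8 genes, with distance in kb on the x axis, transcription to the right, and each bar 1 peak. At Nkx2-1, Lhx6 and Nr2f1 the MGE and CGE lists cover much the same stretch, the MGE in shorter peaks; at Uncx, Fezf2, Barhl2 and Cck the CGE peak is absent or nearly so from the MGE list, and at Gpr50 the MGE peak is the widest.

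Genes that both eminences share were marked in both lists without exception. All 14 had covered bases in each, with median percentiles of 96.0 in the MGE, 94.6 in the CGE, 95.1 in the LGE and 40.2 in the CTX. None stood at the MGE end, and 1 (7.14%, against 4.38% of all genes) stood at the CGE end. Gad1, whose enzyme makes GABA, differed by -10.0 points and Dlx6 by -4.34. Olig1, expressed by ventral progenitors, was 15.4 points higher in the MGE. For Dlx1, Dlx2, Dlx5, Gad2, Slc32a1 and Sp9 the differences lay between -1.43 and 3.33 points.

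The 14 genes of the hedgehog pathway were likewise all marked in both lists, with a median difference of 1.40 points. Hhat, the enzyme that adds palmitate to hedgehog ligands, was the single one at the MGE end, with 1420 covered bases in the MGE and 1316 in the CGE and a difference of 23.3 points. The transcription factor Gli2 and the inhibitor Hhip differed by -11.5 and -10.6 points. Ptch1 and Gli1, the usual reporters of the pathway's activity, differed by 0.39 and -1.73 points.

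None of the 16 genes of neural progenitors stood at either end. Their median difference was 3.18 points, the highest of the 18 lists described. It was 2.96 by the highest −log10 q and -0.33 by the highest fold. The median percentiles were 95.7 in the MGE, 86.8 in the CGE, 90.5 in the LGE and 94.4 in the CTX. Ccnd2 and Hes1, which keep progenitors cycling, were 12.4 and 11.6 points higher in the MGE, while Slc1a3 differed by -5.94. All of them changed sides by peak score. By −log10 q Ccnd2, Hes1 and Slc1a3 stood at -10.0, -17.8 and 4.37 points, and by fold at -2.73, -13.1 and 11.1.

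Genes of the cortex were far lower in the MGE list than in the CGE list. Of 20 genes of pallial progenitors and excitatory neurons, 10 stood at the CGE end (against 4.38% of all genes) and none at the MGE end. Their median percentile was 41.8 in the MGE, 94.3 in the CGE, 95.3 in the LGE and 89.9 in the CTX, so that the MGE list stood apart from the other three. The MGE percentile was the lowest of the 4 for 16 of the 20 genes. Among the 14887 genes marked in any list, it was the lowest for 24.3%. The median difference of the 20 genes was -25.0 points by covered bases, -4.47 by the highest −log10 q and 0.50 by the highest fold.

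Fezf2, which directs the fate of deep-layer projection neurons, had 180 covered bases in the MGE, 3905 in the CGE, 3574 in the LGE and 3644 in the CTX. The CGE peak lay at chr14:12342642-12346546, and the whole of the MGE signal was a peak of 180 bp inside it, for a difference of -61.4 points. Emx1, a homeobox gene of the dorsal telencephalon, had 495, 3453, 3337 and 2969 covered bases in the MGE, CGE, LGE and CTX, a difference of -55.0 points. Its MGE peak was a fragment at chr6:85187487-85187981 within the CGE peak at chr6:85187474-85190926.

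The T-box factors of cortical differentiation followed the same pattern. Tbr1 had 429 and 2945 covered bases in the MGE and CGE (-54.0 points) and Eomes 445 and 2878 (-53.4 points). Slc17a6, which encodes a vesicular glutamate transporter, had 541 and 5574 (-56.5 points). The proneural and neuronal differentiation factors Neurog2, Neurod2, Neurod1 and Bhlhe22 differed by -55.8 to -40.3 points. Pax6, with 1062 and 6739 covered bases, differed by -31.5.

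Not every pallial gene parted the lists. Lhx2 had 3718 covered bases in the MGE and 9024 in the CGE and stood at the 99.6 and 99.97 percentiles. Emx2, Lhx9, Tle4 and Rorb differed by -18.4 to -11.6 points. Neurod6 and Slc17a7, markers of later excitatory neurons, had 328 and 452 covered bases in the MGE and 584 and 790 in the CGE, and differed by 1.42 and 1.51 points.

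**Figure D3:**
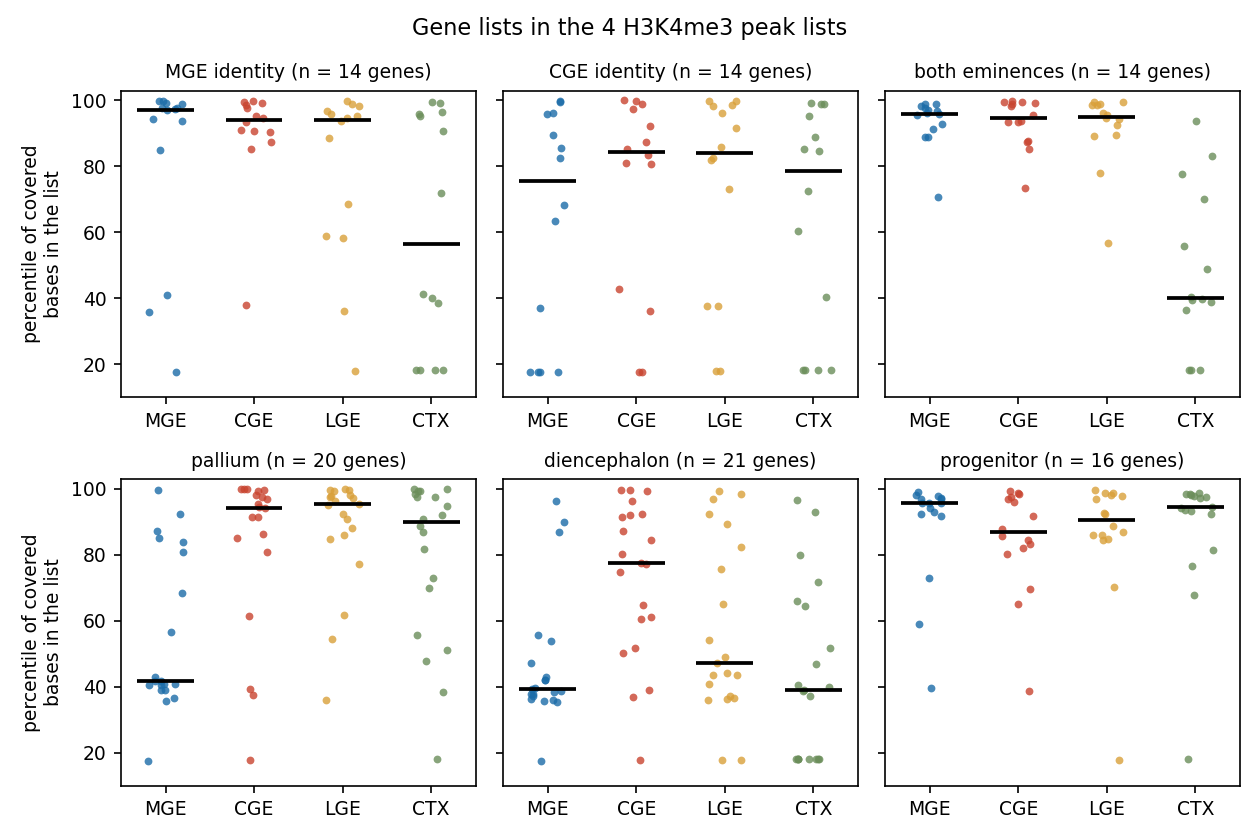
Percentile of covered bases, on the y axis, of the genes of 6 lists in each of the 4 peak lists, where each point is a gene and each bar the median. Pallium genes have medians of 41.8 in the MGE and 89.9 to 95.3 elsewhere, diencephalon genes 77.6 in the CGE and 39.0 to 47.3 elsewhere, and the genes of both eminences 40.2 in the CTX.

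At genes of the diencephalon and hypothalamus the CGE list was the one that stood apart. Of 21 such genes, 13 stood at the CGE end (61.9%) and none at the MGE end. The median percentile was 77.6 in the CGE against 39.2 in the MGE, 47.3 in the LGE and 39.0 in the CTX. The CGE percentile was the highest of the 4 for 14 genes, against 17.2% of all genes marked in any list. The median difference of -25.4 points by covered bases turned to the MGE side by peak score, at 3.97 points by −log10 q and 7.47 by fold.

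Barhl2, a homeobox gene of the diencephalon, had 370 covered bases in the MGE and 6191 in the CGE, with 4720 in the LGE and 661 in the CTX. It differed by -60.2 points. Lhx5 had 654 covered bases in the MGE, 5839 in the CGE, 1832 in the LGE and 159 in the CTX, a difference of -52.6 points, and Lhx1 had 792, 3330, 1124 and 291, a difference of -42.5. Both are LIM homeobox genes of the prethalamus and hypothalamus. The hypothalamic factors Otp, Hmx3, Hmx2 and Rax differed by -48.5 to -37.9 points. Nkx2-2, whose window touches a peak number missing from both lists as described below, differed by -38.9 points, Foxb1 by -29.2, and Irx1, Irx5 and Irx2 by -25.4 to -22.7.

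Tcf7l2, a thalamic gene with wider expression, was 4.23 points higher in the MGE, and Foxd1 3.14 points higher. Fezf1, at the 86.9 percentile in the MGE, differed by -12.4 points.

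The set of LGE and striatal genes had 4 of 18 members (22.2%, against 4.38% of all genes) at the CGE end and none at the MGE end. Its median difference was -7.32 points. Ebf1, a factor of striatal projection neurons, had 375 covered bases in the MGE, 4775 in the CGE, 2425 in the LGE and 529 in the CTX, -59.5 points. Isl1, Drd2 and Zfp503 were the others, at -34.2, -42.5 and -25.3 points, whereas Six3, Meis2 and Foxp1 differed by less than 1 point.

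Among 47 genes that encode secreted Wnt, Fgf and Bmp signals, 13 (27.7%, against 4.38% of all genes) stood at the CGE end. None stood at the MGE end, against 1.82% of all genes. Wnt4 and Wnt3 had no covered base in the MGE and 2030 and 1790 in the CGE. Wnt10b had 131 and 3059. Of 16 genes of the cortical hem and choroid plexus, 4 (25%) stood at the CGE end. These were Msx1 at -44.1 points, Rspo3 at -43.4, and Gdf7 and Bmp7, signals of the dorsal midline, at -30.1 and -20.1. Kl stood at the MGE end at 20.6 points. Ttr, the abundant transcript of the choroid plexus, was unmarked in all 4 lists.

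Of 31 genes that guide migrating interneurons or their axons, 4 (12.9%, against 4.38% of all genes) stood at the CGE end. These were Robo2, Unc5a, Sema3a and Gdnf, at -45.3, -32.9, -27.0 and -20.5 points. The receptors Erbb4, Cxcr4, Nrp1 and Dcc, used by migrating interneurons, were 1.14 to 7.42 points higher in the MGE, and the Slit receptor Robo1 was 13.3 points higher. By the highest −log10 q and by fold all of these receptors stood on the CGE side, Robo1 at -24.9 and -20.4 points. Genes of mature interneuron classes counted 5 of 20 (25%) at the CGE end. Apart from Cck and Sst these were Lamp5, Nos1 and Calb1, at -37.9, -22.4 and -22.2 points. Pvalb had 246 covered bases in the CGE and none in the MGE, -18.0 points.

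Markers of cells from outside the neural tissue were marked in part. Of 13 genes of blood and microglia, 4 had covered bases in the MGE and 3 in the CGE, none stood at either end (Tmem119 came closest, at 19.96 points), and Ptprc and P2ry12 were at 0 in both. Of 12 vessel genes, 8 and 7 were marked, with Esam at -44.2 points and Pdgfrb at -27.7 at the CGE end. Of 12 mesenchyme genes, 8 and 9 were marked and 4 (33.3%, against 4.38% of all genes) stood at the CGE end. They were Pdgfra, Twist2, Tbx18 and Foxc1, at -28.1 to -22.3 points, while the defining Col3a1 and Lum were unmarked in both. Of 39 HOX genes, 4 were marked in the MGE and 17 in the CGE, and all but 3 of the latter were unmarked in the MGE. These peaks were weak. The strongest peak of a marked HOX gene had a median −log10 q of 1.51 in the MGE and 2.02 in the CGE. Over all marked genes these medians were 19.3 and 142. At the CGE end stood 4 of the 39 (10.3%), Hoxb13 at -66.6 points and Hoxc6, Hoxa10 and Hoxd9 at -22.3 to -20.05. Hoxa7 stood at the MGE end at 21.6 points. Of 16 housekeeping genes, Tbp alone stood at the CGE end, at -24.7 points, and the median difference was -0.52. Of 15 neuronal genes, Nefl stood at the MGE end at 20.5 points, and Dcx and Snap25 at the CGE end at -34.3 and -25.5.

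**Figure D4:**
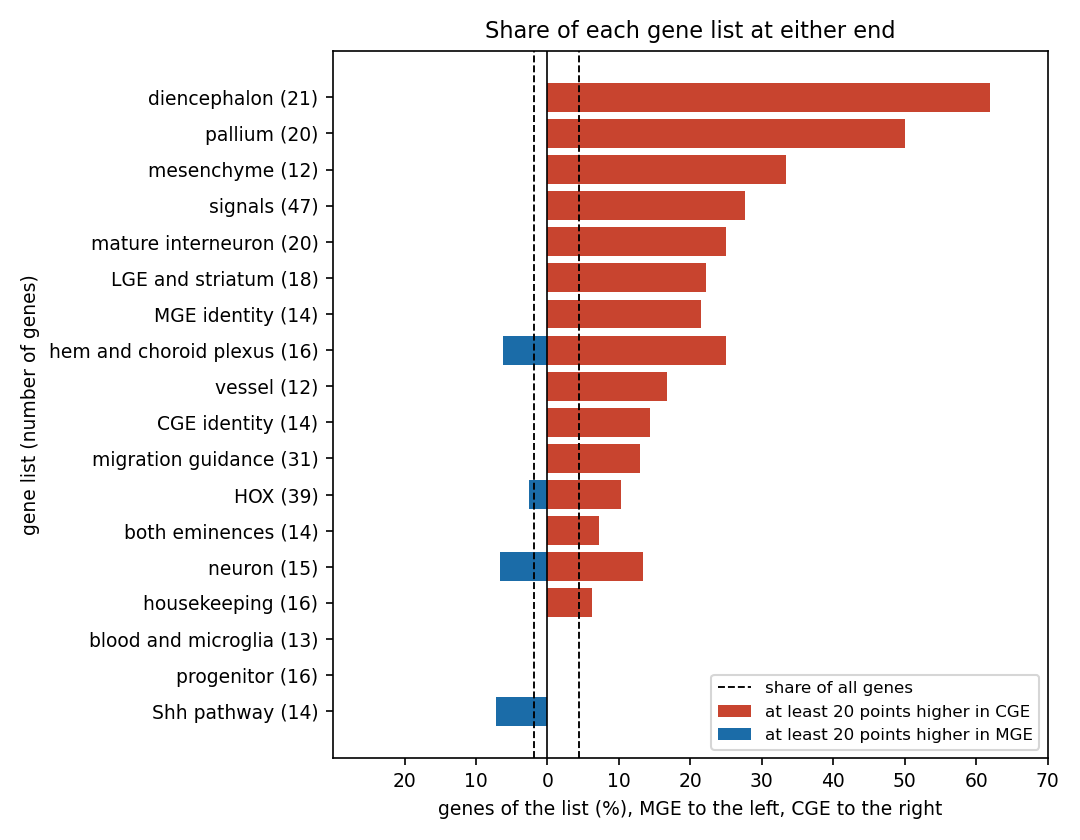
Share of the genes of each of 18 lists that were at least 20 points higher in the CGE (right) or the MGE (left), with the number of genes in brackets and dashed lines at the shares of all genes, 4.38% and 1.82%. Diencephalon and pallium genes have the highest shares at the CGE end, 13 of 21 and 10 of 20 genes, and no list has more than 1 gene at the MGE end. Genes within 20 points of the top in the CGE could not reach the MGE end.

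The 15 genes farthest to the CGE side had no covered base in the MGE list, so their rank followed their CGE coverage alone. Uncx, a homeobox gene, led with 3961 covered bases in the CGE and 3886 in the LGE and none in the MGE or CTX. Its CGE peak at chr5:139543816-139547776 started 322 bases into the gene and had a fold enrichment of 3.23 and a −log10 q of 42.2. Lin28a, an RNA-binding protein of early progenitors, followed with 2917 covered bases in the CGE, 3054 in the LGE and 1103 in the CTX. Cbln4, a synaptic organiser, had 2752 in the CGE, 2558 in the LGE and 1321 in the CTX. Slc18a3 and Chat, the vesicular transporter and the enzyme of cholinergic neurons, share a locus and a CGE peak of 2367 bp at chr14:32462938-32465304. The LGE had 2188 covered bases there and the CTX 125.

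Further transcription factors among the 15 were Tfap2c, Phox2a, Dmrt3, Tlx1 and Egr4, with 2361, 2353, 2287, 2233 and 2164 covered bases in the CGE. Tfap2c and Dmrt3 also had 2430 and 2629 in the CTX, more than in the CGE, so that the MGE was the list that lacked them. Tlx1 had 759 in the LGE and none in the CTX. The remaining members were Pcdhga12, Col8a2, Kcnk9, Cck and Dhh. Several of these peaks were weak by the deposited score, as the highest −log10 q of a CGE peak was 1.92 at Tlx1, 3.16 at Col8a2 and 3.68 at Phox2a.

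Taken as a group, the 961 genes of the CGE end had a median percentile of 80.7 in the CGE, 74.3 in the LGE, 48.7 in the CTX and 44.35 in the MGE. Their median covered bases were 1886 in the CGE and 581 in the MGE. Of them, 739 were marked in both lists and 222 in the CGE alone. Where both lists had peaks, the MGE peaks lay almost wholly inside the CGE peaks. At the 739 genes, 96.6% of the MGE bases were under a CGE peak, while 29.3% of the CGE bases were under an MGE peak. With the 222 genes unmarked in the MGE included, the latter share was 25.3%. Over all genes the shares were 95.8% and 65.4%. The genes of the CGE end were chosen for low MGE beside CGE coverage, so a low second share was built in.

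Among the genes marked in both lists the CGE side was led by Nxph4, Fezf2, Adcyap1, Barhl2, Wnt10b and Ebf1, a choice made after the values were seen. Nxph4 had 131 covered bases in the MGE and 3747 in the CGE (-62.0 points) and Adcyap1, which encodes the neuropeptide PACAP, 140 and 3360 (-60.7 points). Nhlh2, Tfap2a and Dmrta2 differed by -58.0 to -57.3 points, of which Tfap2a and Dmrta2 stood at 10.9 and 21.4 by fold.

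The genes farthest to the MGE side were a mixed set, and part of them cannot be read. The peaks of each list carry running numbers in order of position, and some numbers are skipped, 33 in the MGE list and 64 in the CGE list. The peaks at the skipped numbers were not analysed here. The windows of 144 genes touch the place of a skipped number in the MGE and those of 316 in the CGE. Of the 15 genes farthest to the MGE side, 7 lay there in the CGE list, and 6 of these had no CGE base. They were Aida and Brox, which share a start region, Ube2q2, Lrrc59, Fem1b and Trappc8, and the seventh was Stk11. For these the absence of a CGE peak says nothing about the tissue. Brox, for example, had 1674 covered bases in the MGE, 1800 in the LGE and 1629 in the CTX. None of the 15 genes farthest to the CGE side lay at a skipped MGE number.

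Without such genes, 377 remained at the MGE end and 953 at the CGE end. The MGE side was then led by Kctd14, Gpr50, Pfkfb4, Fam205c, 6430550D23Rik, Ttll9, Tnnt1 and Mecr, all of them among the first 15 as well. Kctd14 had 1126 covered bases in the MGE in 2 peaks, 903 in the CTX, 446 in the LGE and none in the CGE, a difference of 53.9 points. Its MGE peaks were weak, with a −log10 q of at most 2.30. Gpr50, an X-linked gene for a receptor related to the melatonin receptors, had 1571 covered bases in the MGE, 735 in the CGE, 670 in the LGE and 140 in the CTX, 47.9 points. Its MGE peak at chrX:71663552-71665122 contained the CGE peak at chrX:71664344-71665078 and extended over the start.

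Pfkfb4, a regulator of glycolysis, had 2230 covered bases in the MGE and 1140 in the CGE, 45.1 points. At its 5′ end the peaks were alike, 868 bp in the MGE and 1140 bp in the CGE. The difference came from an MGE peak of 1362 bp at chr9:109019900-109021261, which began 28122 bases past the 5′ end, near another annotated start site. Fam205c and Tnnt1 had 935 and 888 covered bases in the MGE and none in the CGE, at a −log10 q of 1.24 and 4.48. Ttll9 had 1340 and 741, Mecr 1432 and 920 and 6430550D23Rik 1755 and 1085 in the MGE and CGE.

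Scn8a, which encodes a neuronal sodium channel, and Gnai1, a G protein subunit, were among the 15 highest genes marked in both lists, a choice made after the values were seen. Scn8a had 1666 and 1176 covered bases in the MGE and CGE and 1842 in the CTX (36.6 points), and Gnai1 1365 and 1037 (34.8 points). By peak score both stood past 20 points on the CGE side, Scn8a at -24.9 points by −log10 q and -29.8 by fold and Gnai1 at -32.0 and -40.5. As a group, the 377 genes had median percentiles of 68.4 in the MGE, 42.3 in the CGE, 45.2 in the LGE and 50.02 in the CTX. Their median covered bases were 1064 in the MGE and 923 in the CGE, so that their distance in rank went with a small distance in bases. Where the MGE list alone marked a gene of the MGE end, as it did for 172 of the 400, its strongest peak had a median −log10 q of 1.75. For the 222 genes that the CGE list alone marked at its end the median was 6.17. These scores are not on one scale, as the median over all peaks was 5.19 in the MGE and 79.3 in the CGE. As percentiles within their own list, the medians of the 2 groups were 37.8 and 38.4.

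Genes that parted the lists by covered bases were mostly not the ones that parted them by peak score. Fold and −log10 q are each 1 value for a whole broad peak, whatever its width. They are therefore not a height at one position, and wide and narrow peaks were not scored over the same bases. By the highest −log10 q of a peak in the window, 1083 genes were at least 20 points higher in the MGE and 995 in the CGE, and by the highest fold 1532 and 1556, more than by covered bases. The genes of either end were chosen for their covered bases, so their values by score are given as a description. When genes were ranked by the highest −log10 q of a peak in the window, the 961 genes of the CGE end had a median difference of 0.36 points. By the highest fold enrichment it was 1.74 points. The 739 of them marked in both lists were 7.85 points higher in the MGE by fold in the median, although their median by covered bases was -29.3. The 228 genes of the MGE end marked in both lists had medians of -15.8 points by fold and 23.6 by covered bases. By −log10 q, 93 of the 400 genes of the MGE end and 145 of the 961 of the CGE end still differed by 20 points in the same direction. Single genes turned their direction with the measure. By the highest fold, Barhl2 stood at 18.4 points, Ebf1 at 23.0, Gbx2 at 14.1, Gbx1 at 1.61, Lhx5 at 2.13, Slc17a6 at 1.12 and Fezf2 at 0.78, all on the MGE side, and Gpr50 at -27.0 on the CGE side. At Barhl2 the highest fold was 5.23 in the MGE and 2.45 in the CGE, where the MGE peak was 370 bp wide and the CGE peak 6191 bp.

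The MGE list was also the more broken up. Over the 13789 genes marked in both, the mean number of peaks in the window was 1.34 in the MGE and 1.21 in the CGE. The MGE had more peaks at 1824 genes and the CGE at 368. In the genes of both eminences the means were 2.07 and 1.29 and in the progenitor genes 2.06 and 1.06. At the diencephalon genes they were 1.55 and 1.70.

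By position, 76.4% of the genes of the CGE end were covered in the CGE at their most covered point, 300 bp into the gene, and 52.0% at 1 kb. In the MGE the highest share was 39.6%, at the 5′ end itself, and 6.30% at 1 kb. For genes marked in both lists that stood at neither end, the shares at 1 kb were 41.4% in the CGE and 21.9% in the MGE. The genes of either end were chosen for these same covered bases, so a gap between the lists was built in. The CGE end also includes genes without an MGE base, which the comparison group does not. At the MGE end, 52.5% of genes were covered at the 5′ end in the MGE and 41.1% in the CGE, and 19.1% and 21.2% at 1 kb.

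**Figure D5:**
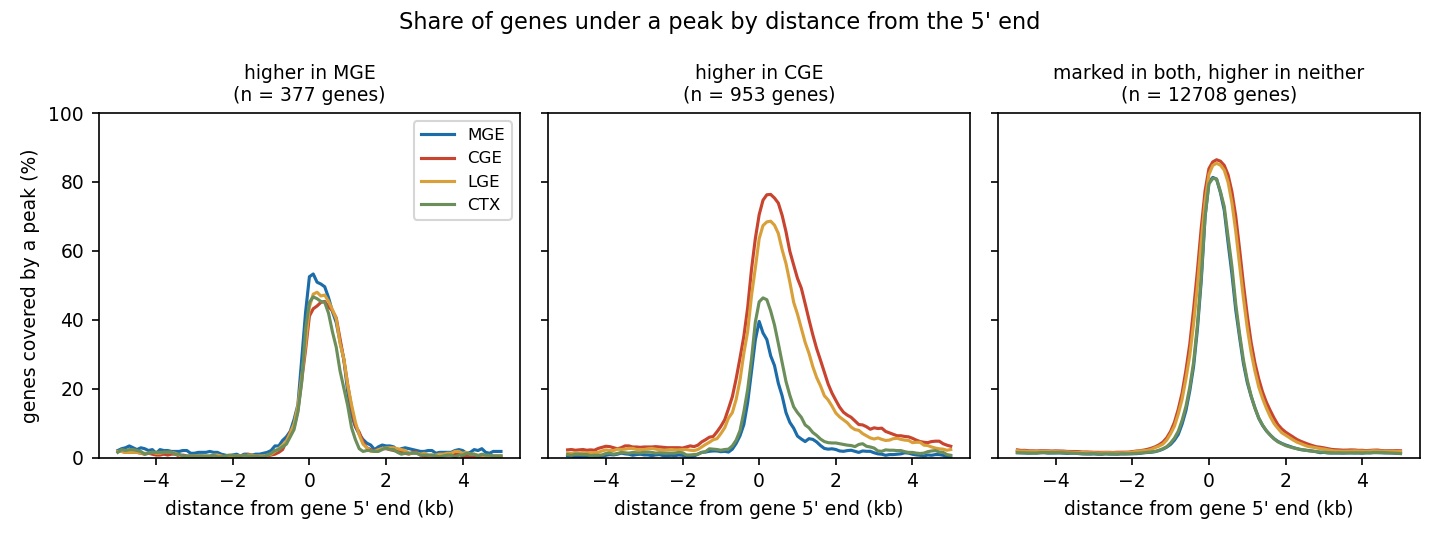
Share of genes covered by a peak, in %, by distance from the gene 5′ end in kb, for the 377 genes at the MGE end, the 953 at the CGE end and 12708 genes marked in both lists at neither end, all without genes at skipped peak numbers. At the CGE end the CGE and LGE curves reach 76.4% and 68.6% and extend into the gene, while the MGE and CTX curves reach 39.6% and 46.4%.

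A gene counted as having a promoter peak where any base of a peak fell in the 2 kb before one of its annotated starts. Both lists had one at 12792 genes and neither at 8314. The MGE alone had one at 267 genes, 1.22% of all, and the CGE alone at 565, 2.58%. Of the 267, 96 had covered bases in the CGE within the 5 kb window, and the median over the 267 was 366 in the MGE and 0 in the CGE. Of the 565, 309 had covered bases in the MGE. All 10 genes with the most covered bases among the 267 were covered in the CGE too, by 1762 to 3450 bases. Elavl3, a neuronal RNA-binding protein, had 2902 covered bases in the MGE and 2858 in the CGE. Its MGE peak began at -138 bases from the 5′ end and its CGE peak at 46. At Tox3, Rnd3 and Ildr2 the MGE peak began at -452, -164 and -161 bases from the 5′ end and the CGE peak at 256, 371 and 141.

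Among the 10 such genes of the CGE, Uncx had none, and Fezf2 and Nxph4 had 180 and 131 covered bases in the MGE against 3905 and 3747 in the CGE. Zfhx3, Zfp503, Trp73, Csmd3, Gpr153, Ankrd34a and Gpsm3, the others of the 10 with the most bases, had 990 to 2288 in the MGE and 3755 to 6835 in the CGE. With the promoter taken as 2 kb on both sides of the start, 321 genes had a peak in the MGE alone and 421 in the CGE alone.

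The lists fell into narrow and wide kinds that cut across the tissues. The median −log10 q of a peak was 5.19 in the MGE and 8.57 in the CTX, and 79.3 in the CGE and 40.0 in the LGE. The median widths were 563 and 701 bp against 1240 and 1168 bp. Across genes, the MGE-minus-CGE difference and the CTX-minus-LGE difference, which share no library, had a Pearson r of 0.478. Subtracting the latter from the former left 187 of the 400 genes at the MGE end and 400 of the 961 at the CGE end. The median of the CGE-end genes went from -29.2 to -15.3 points, and Dcx, Lamp5, Drd2, Col8a2, Csmd3, Gpr153, Trp73 and Stk11 reversed sign. Depth stated for the CGE libraries was higher than that for the MGE. The part of list type and depth in the differences was not tested beyond these values. After the subtraction Fezf2 stayed at the CGE end, with -61.4 points for MGE minus CGE and 1.47 for CTX minus LGE. So did Gbx2 at -51.3 and 35.8, whereas Barhl2 had -60.2 and -52.5. The CTX-minus-LGE difference also holds what differs between those tissues, so the subtraction cannot tell list type from tissue. By the highest fold Fezf2 and Gbx2 stood on the MGE side, at 0.78 and 14.1 points.

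Over 10 kb, though not close to the 5′ end, the genes at the CGE end were richer in CG than genes marked in both lists at neither end. The median number of CG dinucleotides in the 10 kb around the gene 5′ end was 197 at the CGE end, 159 at the MGE end, 181 for genes marked in both lists at neither end and 151 over all genes. It was 351 at the diencephalon genes and 247 at the pallium genes, and 305.5 and 270.5 at the MGE and CGE identity genes. Within 500 bp of the 5′ end the GC content was 57.8% at the CGE end, 56.5% at the MGE end and 54.7% over all genes, unmarked ones included. For genes marked in both lists at neither end it was 58.7%. Their observed-to-expected CG ratio within 500 bp was 0.717, against 0.613 at the CGE end and 0.552 over all genes. This ratio was 0.274 for the genes of the MGE end that the CGE list did not mark. For the genes of the CGE end without an MGE base it was 0.532.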

How the data were processed

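H3K4me3 was profiled by CUT&Tag in dissected MGE, CGE, LGE and somatosensory cortex. Per the labels, equal numbers of nuclei of the regions were pooled and diluted before the reactions, and how regions were then kept apart is not given in the sources used here. The labels name E12.5 and E14.5, and the study's methods E12.5. The authors aligned reads to GRCm38/mm10 with Bowtie2, removed blacklisted regions, removed duplicates with Picard, merged replicates and called broad peaks with MACS. The MACS version, threshold and control are not given in the sources used here. The deposited lists give each peak's fold enrichment (a ratio) and its −log10 q. The read depth behind a peak is unknown.

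Python 3.11.15, numpy 2.4.6, pandas 2.3.3 and matplotlib 3.10.9 were used. Covered bases were counted within 5 kb of every annotated start site of each protein-coding gene and ranked within each list, ties sharing the mean rank. The peaks of skipped running numbers were not analysed here. The ranking code was tested on simulated lists. The members and the gene lists were chosen with earlier results of these data known. Named by rule were the 15 genes at each end, all MGE and CGE identity genes, the 10 genes per list with the most covered bases among those with a promoter peak in it alone, and the 2 highest and 2 lowest of each other gene list. Any other gene was named after its values were seen. Alternatives changed the peak score, list length, peak width, gaps, chromosomes, window, start sites, ties, measure, promoter and overlap, and the closing section gives their effect. Some genes that the rule names are not reported here.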

Additional observations from a re-analysis of the deposited data

How the results depend on the processing

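No paired analysis was possible because replicates were merged before peaks were called, and for the same reason no replicate could be left out. The 400 genes at the MGE end became 1149 with percentiles among covered genes alone, 1083 by −log10 q, 1532 by fold and 726 less the CTX-minus-LGE difference, and, added after seeing the data, 228 among genes covered in both lists. The 961 at the CGE end became 1556 by fold. The promoter counts were 133, 106, 147 and 1634 in the MGE alone with a −log10 q of at least 2, lists of equal length, peaks of at least 250 bp and at least 50% of the peak inside, and 927 in the CGE alone with lists of equal length. In the order −log10 q of at least 2, equal length, 250 bp, gaps under 1 kb joined, autosomes, 2 kb window, 10 kb window, gene 5′ end, covered genes alone, −log10 q, fold and less CTX minus LGE, the median difference of the MGE identity genes in points was 0.62, 0.63, 0.61, 0.41, 0.63, 0.38, 0.68, 1.02, 0.93, 2.23, 1.19, 3.56 (0.60 as reported) and the median difference of the CGE identity genes was -4.23, -4.97, -4.28, -0.39, -2.04, -4.41, -3.39, -4.89, -1.56, -4.91, -0.40, -1.31 (-1.96 as reported). Neither median changed sign under these 12 alternatives. Over 133 genes named by rule and all alternatives, 1371 values kept their side of the 20-point rule, 109 fell short of it, 57 newly passed it and 56 reversed. Reversals were counted only for genes that stood at an end as reported. Genes short of the rule could change sign and still be among the 1371 or the 57. Hes1, for example, went from 11.6 to -17.8 points by −log10 q. Those that reversed were, in points, by −log10 q: Gbx2 7.48, Hhat -7.43, Rspo3 3.2, Ebf1 6.02, Unc5a 2.22, Zfp503 4.29, Nefl -18.6, Robo2 15.9, Tbp 15.2, Pdgfrb 5.01, Gpr153 4.18, Trp73 17, Gbx1 1.77, Pdgfra 10.9, Barhl2 2.61, Kl -6.81, Esam 0.88, Gpr50 -0.67. By fold: Gbx2 14.1, Hhat -28, Rspo3 15.2, Nxph4 3.27, Ebf1 23, Unc5a 9.99, Fezf2 0.78, Zfp503 12.1, Nefl -23.9, Csmd3 6.8, Robo2 36, Tbp 34.8, Pdgfrb 7.22, Snap25 18.2, Ttll9 -4.41, 6430550D23Rik -2.68, Gpr153 6.31, Trp73 17.5, Gbx1 1.61, Pdgfra 21.3, Barhl2 18.4, Lhx5 2.13, Kl -35.2, Slc17a6 1.12, Esam 2.01, Gpr50 -27, Dcx 10.8. Less CTX minus LGE: Stk11 -18.9, Csmd3 10.0, Lamp5 22.2, Col8a2 1.08, Gpr153 22.7, Trp73 20.5, Drd2 12.9, Dcx 37.5. With a −log10 q of at least 2: Hoxc6 1.32, Tlx1 1.32. With a 2 kb window: Dhh 0.23. Genes named outside the rule are not in these counts. Of them, 40 stood at either end, and 21 turned direction by −log10 q and 24 by fold, a check added after seeing the data. These 24 were Bhlhe22, Bmp7, Dmrta2, Emx1, Foxc1, Gdf7, Gdnf, Gnai1, Hmx2, Irx1, Irx2, Irx5, Isl1, Lhx1, Nkx2-2, Oaz1, Pax6, Rax, Scn8a, Sema3a, Tbx18, Tfap2a, Tspo and Wnt10b. The cause was not tested.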

Other observations

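Gene families were counted after the values had been seen, as a description. At the CGE end stood 4 of 5 Tfap2 genes (median difference -48.0 points), 3 of 4 Ebf genes (-51.0), 4 of 6 Irx genes (-23.6), 5 of 9 Pax genes (-20.8) and 8 of 15 Tbx genes (-20.8), with none of these families at the MGE end. All are families of transcription factors used in patterning. Of 94 genes named Kcn, which encode potassium channel subunits, 19 stood at the CGE end and 1 at the MGE end. Of 19 genes of glutamate receptors (Grin, Gria and Grm), 5 stood at the CGE end, and of 21 genes named Pcdhg, protocadherins of one cluster that share sequence and start regions, 7. The share of all genes there was 4.38%.

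At the MGE end the family with the highest count was S100a, a cluster of small calcium-binding proteins, with 4 of 14 genes (28.6%, against 1.82% of all genes). The median −log10 q of the S100a genes in the MGE was 2.16. Among 98 ribosomal protein genes 3 stood at the CGE end and none at the MGE end, and among 394 genes named Zfp, 11 and none. Of 1135 olfactory receptor genes, 2 stood at the MGE end and 1 at the CGE end.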
